A study of Mus musculus with 6 samples.

Results

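The metalloproteinases of the Mmp and Adam families were followed in whole hearts of mice. They were taken from the count table as the genes annotated protein coding whose name starts with Mmp and a digit or with Adam, which also collects the Adamts and Adamtsl genes. The rule found 80 genes among the 54532 listed. Of these, 46 had at least 10 counts in 3 or more of the 6 hearts and are described, and 34 did not. The RNA came from 3-month-old male mice on a C57BL/6 background, with 3 hearts of each genotype. One genotype was labelled Na/K-ATPase a1r/ra2s/s (resistant), the other was Na/K-ATPase a1s/sa2s/s (sensitive). Resistant mice carry the rodent α1 subunit of the sodium pump, which binds cardiotonic steroids weakly. Sensitive mice carry an α1 with engineered amino acid substitutions that raise this affinity in every tissue, and both genotypes carry the s/s form of α2. The labels name no treatment. The study's methods describe its control mice as littermates, whereas for RNA sequencing they are called only age-matched. Which of the 6 mice share litters is not given. The resistant hearts came from mice 368, 369 and 370 and the sensitive hearts from mice 379, 380 and 381.

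Matrix metalloproteinases (Mmp) are zinc proteases that cut collagens, gelatins and other matrix proteins, most of them secreted as zymogens and some held on the membrane. Adam proteases are membrane proteins that shed growth factors, receptors and adhesion proteins from the cell surface, and several of them have lost the protease activity. Adamts proteases are secreted and process procollagens, proteoglycans and microfibril proteins, whereas the Adamts-like (Adamtsl) proteins share only their other domains and are not proteases, so the name metalloproteinase does not hold for every member. In the heart these families are known for their part in matrix turnover, valve formation and growth factor release.

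The 6 libraries held 19309312 to 20470065 counts. Mitochondrially encoded genes took 23.4% to 24.4% of them in resistant hearts and 25.0% to 26.0% in sensitive hearts, without overlap, and the call of Mmp15 given below was also made with these genes left out. The tissue label was checked on 10 cardiomyocyte markers, which summed to 66150 to 81400 counts per 1000000 (CPM) in resistant hearts and 73090 to 78530 CPM in sensitive hearts. Counts per gene do not show the substitutions, so genotype was taken from the labels. In whole tissue, fewer cells of a type and less RNA per cell cannot be told apart.

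Most of the family did not pass the test between the genotypes. By the quasi-likelihood test of edgeR, with p-values adjusted (Benjamini-Hochberg) over 14866 genes, 1 of the 46 described genes had an adjusted p under 0.05, Mmp15, which was lower in sensitive hearts. That is 2.17% of the described genes, beside 1.44% of all genes tested, 0.659% lower and 0.78% higher in sensitive hearts. DESeq2 called Mmp15 and Adam19, both lower in sensitive hearts, out of 28 described genes that it gave an adjusted p, or 7.14%, beside 3.65% of all genes it gave one. It gave none to the other 18, which had at most 97 counts in a heart. At an unadjusted p under 0.05 there were 5 described genes, or 10.9%, beside 14.5% of all genes tested. Of the 46 genes, 28 (60.9%) had a negative and 18 a positive log2 fold change of sensitive over resistant hearts. Among all genes tested, 51.6% had a negative one. The median log2 fold change was -0.06 for the 46 genes, beside -0.0078 for all genes tested. Without mouse 381 the split was 23 to 23, so the balance of signs rests on that heart.

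The level differed widely between the members. Per kilobase of gene length, which allows genes to be compared, 22 of the 46 genes had a mean over 1 CPM per kilobase. Mmp15 with 19.2 ± 3.00 and Mmp2 with 19.1 ± 2.25 CPM per kilobase (SD over hearts, n = 6) had the highest means over the 6 hearts. An SD over 6 hearts also holds any difference between the genotypes. In resistant hearts Mmp15 had 21.7 ± 1.3 and Mmp2 19.3 ± 3.2 CPM per kilobase (SD, n = 3). In sensitive hearts Mmp15 had 16.7 ± 1.4, Mmp2 19.0 ± 1.5 and Adam9 17.2 ± 0.09 CPM per kilobase (SD, n = 3). The order of the means thus differed between the genotypes, though the spreads of Mmp15 and Mmp2 met in both. Adam9 followed with 16.9 ± 0.446, Adamtsl5 with 13.8 ± 0.563, Adam10 with 13.1 ± 1.05 and Adamts1 with 12.3 ± 1.80 CPM per kilobase (SD, n = 6), and the last 3 of these lie within each other's spread. Adamtsl4 with 7.91 ± 0.649 and Adam17 with 7.85 ± 0.699 CPM per kilobase (SD, n = 6) were the next, again without a difference beyond their spread. At the other end, Mmp16 had 0.0844 and Adamts20 0.0967 CPM per kilobase with the deposited gene lengths. With the merged exon length of the annotation, Adamts19 was below both, at 0.0664 in place of 0.200 CPM per kilobase.

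**Figure D1:**
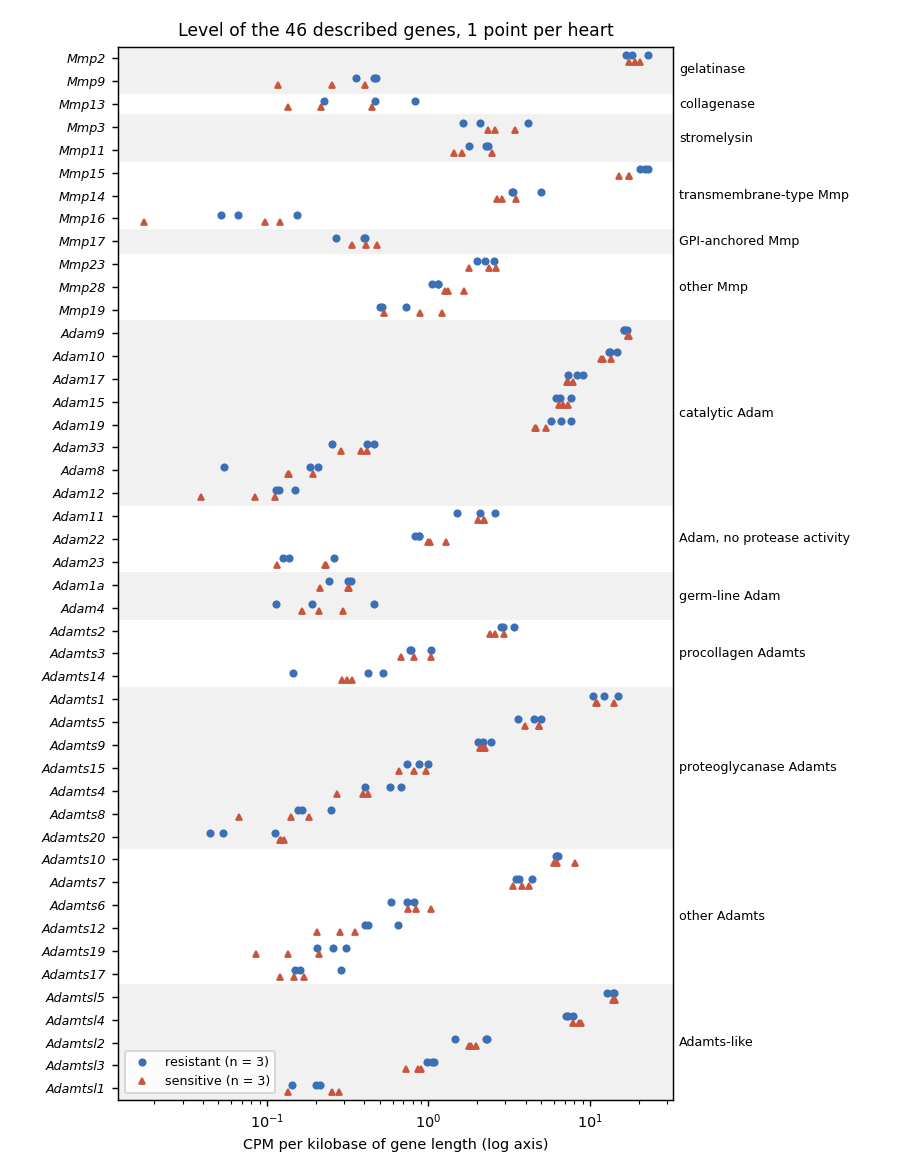
Level of each of the 46 described genes in CPM per kilobase of gene length, on a log axis, with 1 point for each heart, grouped by kind of protease. Mmp15, Mmp2, Adam9, Adamtsl5, Adam10 and Adamts1 lie at 10.4 CPM per kilobase or more in every heart, and the circles of resistant and the triangles of sensitive hearts overlap for most genes.

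The membrane-type Mmp proteins sit on the cell surface, where they cut matrix and activate the zymogen of Mmp2. Mmp15 lies on chromosome 8 of GRCm38 from 95352268 to 95375080. It had 110, 118 and 124 CPM in resistant hearts and 94.3, 94.6 and 81.8 CPM in sensitive hearts. All sensitive hearts were below all resistant hearts. The mean was 117 ± 7.10 CPM in resistant hearts and 90.2 ± 7.30 CPM in sensitive hearts (SD, n = 3). On the log2 scale the difference was -0.38 (standard error 0.08, 95% interval -0.54 to -0.21, edgeR adjusted p = 0.0279). The call held in each of the 8 other settings that kept all hearts and in none of the 6 fits that left out 1 heart, whether mouse 368, 369, 370, 379, 380 or 381, where the adjusted p in edgeR was 0.0512 to 0.0935. Mmp14, the best known activator of pro-Mmp2, had 19.7, 29.9 and 19.9 CPM in resistant hearts and 20.7, 15.9 and 17.1 CPM in sensitive hearts. The heart of mouse 369 stood highest and the genotypes overlapped. A log2 fold change of -0.37 was estimated (standard error 0.15, edgeR adjusted p = 0.276), and -0.14 without mouse 369. Mmp16 had 3 to 28 counts in a heart and a log2 fold change of -0.23 (standard error 0.62, edgeR adjusted p = 0.904). The GPI-anchored Mmp17 had 35 to 61 counts and a log2 fold change of 0.20 (standard error 0.29, edgeR adjusted p = 0.807).

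The RefSeq promoters of the 2 genes called by either tool are shown as the regions nearest to the differing RNA. Capitals mark the AP-1 motif TGANTCA, the TATA box TATAAA and the GC box GGGCGG, each searched on both strands of the 250 bases before and 50 bases after the annotated start. A single start was used for each gene, although 3 were annotated for Adam19. The 2 windows shown lie on the plus strand of GRCm38.p6, that of Mmp15 at chr8:95352046-95352345 and that of Adam19 at chr11:46055734-46056033.
Mmp15: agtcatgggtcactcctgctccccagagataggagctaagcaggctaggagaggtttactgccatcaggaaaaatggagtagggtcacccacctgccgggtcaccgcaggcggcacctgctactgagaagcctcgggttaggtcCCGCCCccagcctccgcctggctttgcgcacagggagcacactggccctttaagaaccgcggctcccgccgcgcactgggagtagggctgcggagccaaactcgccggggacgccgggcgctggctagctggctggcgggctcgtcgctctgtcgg
Adam19: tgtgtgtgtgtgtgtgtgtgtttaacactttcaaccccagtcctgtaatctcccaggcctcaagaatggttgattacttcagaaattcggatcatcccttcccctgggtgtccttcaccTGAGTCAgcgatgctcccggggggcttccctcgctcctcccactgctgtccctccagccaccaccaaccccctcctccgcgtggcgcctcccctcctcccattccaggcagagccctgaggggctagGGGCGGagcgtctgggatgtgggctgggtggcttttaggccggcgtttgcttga
The Mmp15 window held 1 GC box and neither of the other motifs. The Adam19 window held an AP-1 motif at position -131 from the start and a GC box at position -4. Of the 80 members, 48 had a promoter in the table. Some starts lay far from the deposited start of the gene, by up to 61068 bases in Adamts20. Of the 48, 27 were described. A GC box stood in 19 of these 27 (70.4%), beside 35.7% of all 32851 promoters. The AP-1 motif stood in 3 of them (11.1%), beside 7.81% of all promoters, and the TATA box in 4 (14.8%), beside 13.6%. These 27 genes had passed a filter on counts, whereas the set of all promoters was not filtered, so the shares are not like for like. Over all 48 members with a promoter, the GC box stood in 23, the AP-1 motif in 11 and the TATA box in 13. A match is a description of the letters and not a site shown to be bound.

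Adam19, a protease that releases neuregulins and takes part in valve formation, lies on chromosome 11 from 46055992 to 46147343. It had 54.4, 40.6 and 46.9 CPM in resistant hearts and 38.2, 33.1 and 32.4 CPM in sensitive hearts. No sensitive heart reached the lowest resistant heart. Resistant hearts averaged 47.3 ± 6.94 CPM and sensitive hearts 34.6 ± 3.14 CPM (SD, n = 3). The log2 difference was -0.45 (standard error 0.11, 95% interval -0.68 to -0.22). The edgeR adjusted p was 0.0516, just over the threshold, and the DESeq2 adjusted p was 0.0107. Without mouse 369 the edgeR adjusted p was 0.0209, and without any other single heart it was 0.0583 to 0.226. Adam19 shares exonic bases with 2 antisense genes, Gm16033 and Gm16034, which had 0 counts in every heart.

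No other catalytic Adam gene had an unadjusted p under 0.05 in edgeR, and DESeq2 gave an adjusted p to 5 of these 8 genes, Adam19 included, with no further call. Adam10, the protease that cuts Notch receptors, had 64.7, 71.8 and 65.1 CPM in resistant hearts and 66.7, 59.2 and 57.6 CPM in sensitive hearts, with overlap. The fit gave a log2 fold change of -0.14 (95% interval -0.31 to 0.04, edgeR adjusted p = 0.461). Adam17, which releases tumor necrosis factor and ligands of the epidermal growth factor receptor, had 52.6, 64.5 and 59.3 CPM against 51.6, 56.4 and 52.6 CPM, also with overlap. The fitted log2 fold change was -0.13 (95% interval -0.32 to 0.05, edgeR adjusted p = 0.501). It shares 311 exonic bases with Iah1 on the opposite strand. Adam9, another sheddase, had 67.2, 67.3 and 69.4 CPM in resistant hearts and 70.8, 71.4 and 70.7 CPM in sensitive hearts. Every sensitive heart was above every resistant heart, but by little, with a log2 fold change of 0.06 (95% interval -0.08 to 0.21, edgeR adjusted p = 0.722). Adam15 had 41.5 ± 4.61 and 42.0 ± 2.74 CPM (SD, n = 3), with a log2 fold change of 0.02 (edgeR adjusted p = 0.953). Adam33, Adam12 and Adam8 were low, with 27 to 52, 8 to 33 and 5 to 20 counts in a heart. Adam12, known from regenerating muscle and from fibrosis, did not overlap between genotypes, with 1.34 ± 0.205 and 0.834 ± 0.392 CPM (SD, n = 3, edgeR adjusted p = 0.503). The gap was very small, with 1.194 CPM in mouse 369 and 1.192 CPM in mouse 379.

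**Figure D2:**
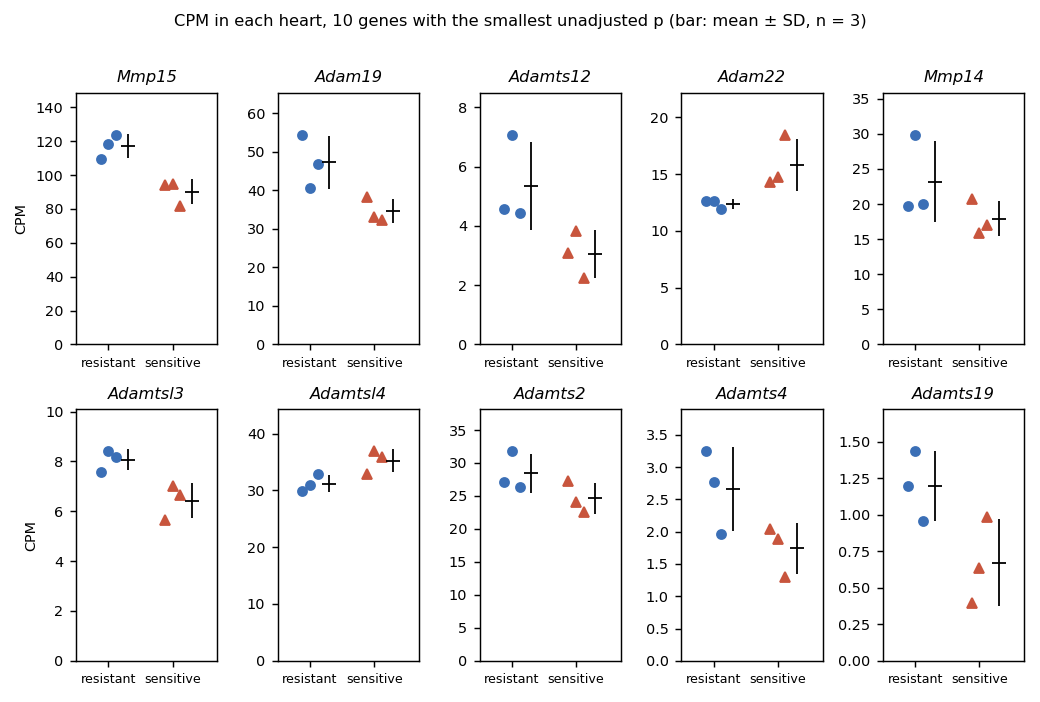
CPM in each heart for the 10 described genes with the smallest unadjusted p, with the mean ± SD (n = 3) beside the points. Mmp15, Adam19, Adamts12 and Adamtsl3 are lower and Adam22 and Adamtsl4 higher in all sensitive hearts, and the genotypes overlap in Mmp14, Adamts2, Adamts4 and Adamts19.

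Adam22, Adam11 and Adam23 belong to the Adam proteins without protease activity, and Adam22 and Adam23 are receptors for secreted Lgi proteins in nerve tissue. Adam22 had 12.6, 12.6 and 11.9 CPM in resistant hearts and 14.3, 14.7 and 18.5 CPM in sensitive hearts. All sensitive hearts were above the resistant hearts, and mouse 381 was highest. The log2 fold change was 0.35 (standard error 0.13, 95% interval 0.09 to 0.62, edgeR adjusted p = 0.198). Adam11 and Adam23 had log2 fold changes of 0.06 and 0.15 (edgeR adjusted p = 0.911 and 0.882). The 6 Schwann and neural markers summed to 55.2 to 62.5 CPM in resistant hearts and 53.0 to 68.1 CPM in sensitive hearts, with 4 of the 5 tested markers higher, none called in edgeR or at an unadjusted p under 0.05, none of the 3 given an adjusted p called in DESeq2, and none at 0 in every heart, and their part in these values was not tested.

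The gelatinases cut denatured collagen and basement membrane. Mmp2, expressed by fibroblasts, had 61.4, 77.2 and 56.6 CPM in resistant hearts and 63.7, 69.1 and 59.0 CPM in sensitive hearts. The genotypes overlapped fully. The log2 fold change was -0.03 (standard error 0.10, 95% interval -0.25 to 0.20, edgeR adjusted p = 0.94), which bounds a change of Mmp2 in these hearts. Mmp9, a product of myeloid cells, had 35, 34 and 25 counts in resistant hearts and 29, 17 and 8 counts in sensitive hearts, with a log2 fold change of -0.72 (standard error 0.44, edgeR adjusted p = 0.476). The 10 neutrophil markers summed to 5.07 to 9.65 CPM in resistant hearts and 1.45 to 5.47 CPM in sensitive hearts. Of these, 3 were tested, all lower without a call in edgeR and 2 at an unadjusted p under 0.05. DESeq2 gave none of them an adjusted p. The 3 were S100a8, S100a9 and Csf3r, with log2 fold changes of -2.34, -1.26 and -0.87 (edgeR adjusted p = 0.0606, 0.275 and 0.351). Of the untested markers, Ly6g, Mpo and Elane had 0 counts in every heart. The part of neutrophils in the Mmp9 values was not tested. All 10 macrophage markers were lower in sensitive hearts, with no call in edgeR, 2 in DESeq2 and 4 at an unadjusted p under 0.05, and summed to 263.5 to 405.3 CPM and 218.8 to 276.0 CPM, none of them at 0 in every heart.

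Of the collagenases, Mmp13 was the 1 described gene, with 46, 26 and 12 counts in resistant hearts and 24, 11 and 7 counts in sensitive hearts. Its log2 fold change of -0.91 was the most negative of the family, and so uncertain (standard error 0.53) that its edgeR adjusted p was 0.458. Among the stromelysins, Mmp3 had 4.73 ± 2.40 and 5.03 ± 1.05 CPM (SD, n = 3) and Mmp11 5.92 ± 0.825 and 5.10 ± 1.53 CPM (SD, n = 3). Mmp11 shares 155 exonic bases with Chchd10 on the opposite strand, a gene with 27012 counts over the 6 hearts, so that its counts are uncertain if strand was not used. Mmp23 had 5.27 ± 0.626 and 5.30 ± 1.03 CPM (SD, n = 3), Mmp28 4.32 ± 0.215 and 5.46 ± 0.824 CPM (SD, n = 3), and Mmp19 2.05 ± 0.458 and 3.10 ± 1.22 CPM (SD, n = 3). Mmp28, also named epilysin, did not overlap between genotypes (log2 fold change 0.34, edgeR adjusted p = 0.451). Mmp19 shares 22.3% of its exonic bases with Tmem198b on the opposite strand.

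**Figure D3:**
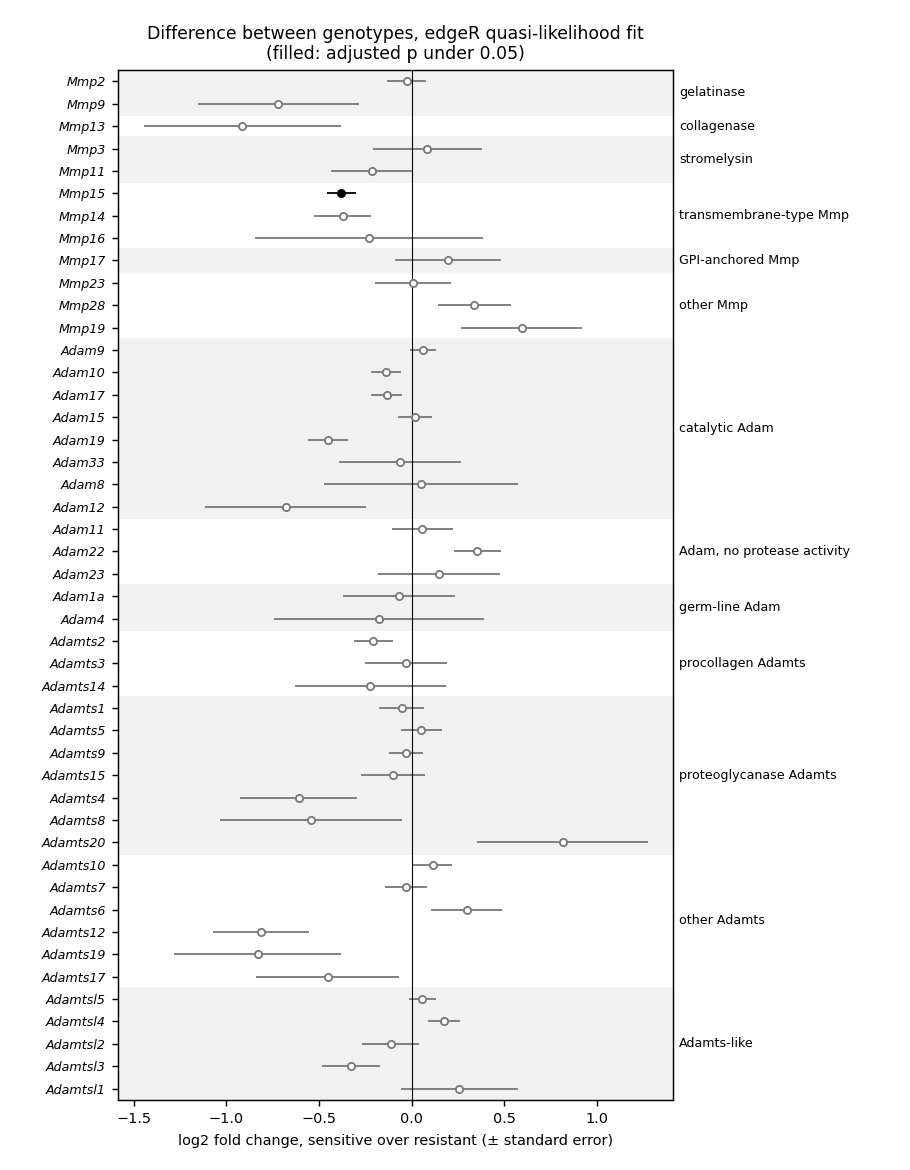
Log2 fold change of sensitive over resistant hearts with its standard error for the 46 described genes, grouped by kind of protease. The 1 filled point is Mmp15, the gene with an edgeR adjusted p under 0.05, and the widest errors belong to genes with few counts such as Mmp16, Mmp13 and Adam4.

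The Adamts genes were grouped by the substrates their proteins are known for. The procollagen N-propeptidases, which trim fibrillar procollagens, had negative log2 fold changes in all 3 genes and no call in edgeR, with none at an unadjusted p under 0.05, and no call in DESeq2 among the 2 it gave an adjusted p. Adamts2 had 27.1, 31.8 and 26.4 CPM in resistant hearts and 27.3, 24.0 and 22.6 CPM in sensitive hearts. Mouse 379 lay within the resistant hearts and the other sensitive hearts below them. The log2 fold change was -0.21 (standard error 0.11, edgeR adjusted p = 0.39). Adamts3 had 74 to 112 counts and Adamts14 15 to 57 counts in a heart, with log2 fold changes of -0.03 and -0.22 (edgeR adjusted p = 0.967 and 0.853).

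The proteoglycanases cut versican, aggrecan and related proteoglycans. All 7 were described, and edgeR called none, with none at an unadjusted p under 0.05. DESeq2 gave an adjusted p to 4 of them and called none. Adamts1, the gene of this group with the highest level, had 55.1, 78.7 and 64.8 CPM in resistant hearts and 74.4, 58.9 and 58.2 CPM in sensitive hearts. The sensitive hearts lay within the range of the resistant hearts. The log2 fold change was -0.05 (95% interval -0.31 to 0.20, edgeR adjusted p = 0.882). Adamts5 had 47.2 ± 7.65 and 49.0 ± 5.14 CPM (SD, n = 3), Adamts9 33.3 ± 2.98 and 32.6 ± 1.19 CPM (SD, n = 3), and Adamts15 9.02 ± 1.38 and 8.41 ± 1.55 CPM (SD, n = 3). Adamts4 had 3.25, 2.77 and 1.96 CPM in resistant hearts and 2.04, 1.89 and 1.30 CPM in sensitive hearts, with overlap through mice 370 and 379. Its log2 fold change was -0.61 (standard error 0.31, edgeR adjusted p = 0.394). Part of its exonic sequence is shared with another annotated gene, so its counts are uncertain if strand was not used. Adamts8 had 6 to 23 counts and Adamts20 8 to 23 counts in a heart. Adamts20 had 21, 10 and 8 counts in resistant hearts and 23, 21 and 21 counts in sensitive hearts. The counts met at 21, and only in CPM were the genotypes apart, with 1.003 in mouse 368 and 1.089 in mouse 381. The log2 fold change was 0.82 (standard error 0.46, edgeR adjusted p = 0.44).

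Among the other Adamts genes, Adamts12, whose protein cuts cartilage oligomeric matrix protein, had 4.58, 7.07 and 4.42 CPM in resistant hearts and 3.08, 3.84 and 2.23 CPM in sensitive hearts. No sensitive heart reached the resistant hearts, and mouse 369 was highest. The log2 fold change was -0.81 (standard error 0.26, 95% interval -1.37 to -0.26, edgeR adjusted p = 0.151), and the call was made only without a filter on low counts (edgeR adjusted p = 0.0304). Without mouse 369 the log2 fold change was -0.56. Adamts19, known from valve disease, had 25, 30 and 19 counts in resistant hearts and 8, 12 and 19 counts in sensitive hearts. The lowest resistant and the highest sensitive heart met at 19 counts. Its log2 fold change was -0.83 (standard error 0.45, edgeR adjusted p = 0.418). Adamts10 and Adamts6, whose proteins bind fibrillins, had 34.1 ± 0.494 and 36.9 ± 6.08 CPM and 5.53 ± 0.912 and 6.80 ± 1.12 CPM (SD, n = 3), in that order of genes and with resistant hearts first. Adamts7 had 24.1 ± 2.93 and 23.6 ± 2.63 CPM (SD, n = 3), and Adamts17 18 to 47 counts in a heart.

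The Adamts-like proteins bind microfibrils. Adamtsl4 had 29.9, 30.9 and 32.8 CPM in resistant hearts and 32.9, 36.9 and 35.8 CPM in sensitive hearts. The genotypes were apart, though mouse 379 was only just above mouse 370. Its log2 fold change was 0.18 (standard error 0.09, 95% interval -0.01 to 0.36, edgeR adjusted p = 0.379). Adamtsl3 had 7.59, 8.41 and 8.19 CPM against 5.66, 6.996 and 6.64 CPM, with all sensitive hearts lower (log2 fold change -0.33, standard error 0.16, edgeR adjusted p = 0.366). Adamtsl5, which binds fibrillins and heparin, had 66.4, 60.1 and 65.6 CPM in resistant hearts and 66.7, 67.5 and 65.7 CPM in sensitive hearts. Mouse 381 lay below mouse 368, so the groups met (log2 fold change 0.06, 95% interval -0.10 to 0.21, edgeR adjusted p = 0.765). Adamtsl2 had 16.1 ± 3.87 and 14.9 ± 0.802 CPM (SD, n = 3) and Adamtsl1 2.37 ± 0.485 and 2.83 ± 0.987 CPM (SD, n = 3).

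In CPM, the hearts of the genotypes did not overlap in 10 of the 46 genes, or 21.7%, beside 20% of all genes tested. In sensitive hearts 5 of them were lower, beside 9.98% of all genes tested, namely Adamts12, Adam12, Adam19, Mmp15 and Adamtsl3. The 5 that were higher, beside 10% of all genes tested, were Adam9, Adamtsl4, Mmp28, Adam22 and Adamts20. An absolute log2 fold change over 0.5 was seen in 9 described genes (19.6%), beside 9.85% of all genes tested. These 9 genes were low, with at most 148 counts in a heart and standard errors of 0.26 to 0.53. None of them was among the calls of the edgeR test above. The standard error of the log2 fold change ran from 0.07 to 0.62 over the 46 genes, with a median of 0.20 and at most 0.12 in the 8 genes with the highest level.

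**Figure D4:**
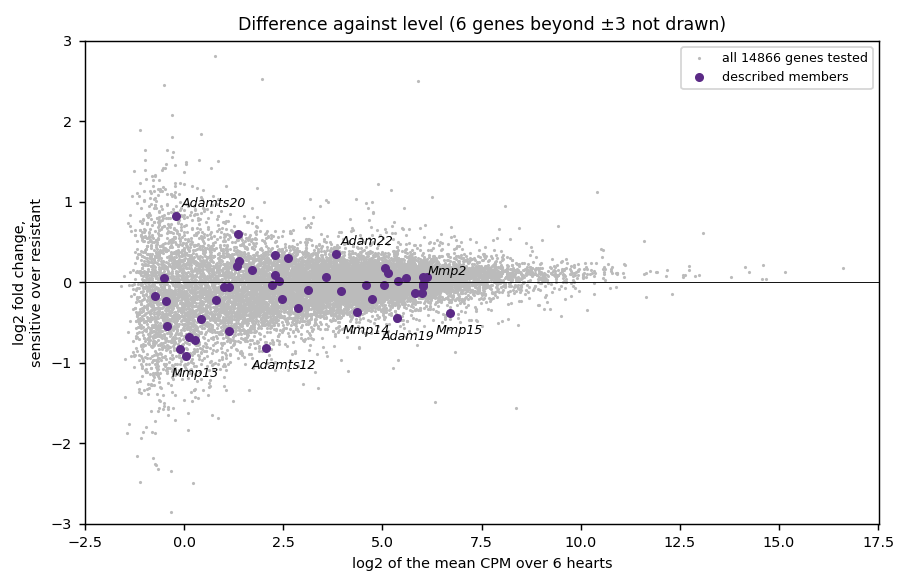
Log2 fold change of sensitive over resistant hearts against the log2 of the mean CPM over 6 hearts, for all 14866 genes tested in grey and the 46 described genes in purple. The described genes far from 0, such as Mmp13 and Adamts20, lie at low CPM where the grey cloud is widest, and Mmp15 and Adam19 lie on its lower side at higher CPM.

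Of the 46 described genes, 37 had at least 10 counts in every heart. The other 9 were Mmp9, Mmp13, Adam12, Adamts8 and Adamts19, which fell short in 1 sensitive heart each, Adam8 and Adamts20, which fell short in 1 resistant heart each, and Adam4 and Mmp16, which fell short in both genotypes. Just inside the limit, Adam4 had 6, 10 and 23 counts in resistant hearts and 15, 10 and 8 in sensitive hearts, and just outside it Adam1b had 7, 8 and 17 counts and 2, 18 and 5 counts. The germ-line Adam genes, whose proteins are known from sperm and fertilization, numbered 21, and only Adam1a and Adam4 of them were described. Adam1a shares 63.7% of its exonic bases with Gm42878, which had 0 counts in every heart, and 24% with Mapkapk5, both on the same strand, and 11.3% with Tmem116 on the opposite strand, so its 32 to 52 counts in a heart are uncertain. In all, 12 described genes share exonic bases with another annotated gene.

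The 34 genes under the limit had at most 18 counts in a heart. Of these, 15 had 0 counts in every heart, namely Mmp1b, Mmp7, Mmp10, Mmp20, Adam6a, Adam7, Adam18, Adam20, Adam24, Adam25, Adam26a, Adam26b, Adam29, Adam39 and Adamts16. A count of 0 allows up to 3 counts, or 0.147 to 0.155 per 1000000 counts of a library, and covers counting error only. The most counted of the others were Adam1b, the macrophage elastase Mmp12 with 5 to 12 counts, Mmp27 with 3 to 9, Adam32 with 3 to 7, and Mmp25 and the neutrophil collagenase Mmp8 with 0 to 8 counts each. Adam2, Adam3, Adam5, Adam6b, Adam21, Adam28, Adam30, Adam34, Adamdec1, Adamts13, Adamts18, Mmp21 and Mmp24 had at most 3 counts in a heart. Adamts13, which cuts von Willebrand factor, is made mainly in the liver.

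Several of the undetected genes lay in runs of neighbouring family members. On chromosome 9, a run of 9 Mmp genes from 7272514 to 7699585 held Mmp13 and Mmp3 as described genes and 4 genes at 0 counts in every heart. On chromosome 8, Adam24, Adam25, Adam20 and Adam39 lay between 40675077 and 40827037, all at 0 counts, whereas Adam9, with one of the highest levels of the family, lay from 24949611 to 25016927 beside Adam18, Adam3, Adam5 and Adam32. In the chromosome 9 run all 9 genes had a promoter in the table, and none of these held a GC box. The AP-1 motif TGANTCA stood in 6 and the TATA box in 7, beside 7.81% and 13.6% of all promoters. As neighbours of 1 family, the 9 genes are not independent draws from all promoters, so the shares are not like for like. The TATA match lay at position -3 from the start in Mmp8 and at -7 in Mmp3. The 100 bases before the start are shown for the 6 genes with the AP-1 motif, with both motifs in capitals. They set the described and the silent genes of the run side by side.
Mmp13, chr9:7272414-7272513: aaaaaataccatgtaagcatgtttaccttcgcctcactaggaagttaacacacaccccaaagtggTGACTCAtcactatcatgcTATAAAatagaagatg
Mmp1b, chr9:7388027-7388126: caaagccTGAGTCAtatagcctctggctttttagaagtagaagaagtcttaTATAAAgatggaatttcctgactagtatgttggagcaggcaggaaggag
Mmp3, chr9:7445722-7445821: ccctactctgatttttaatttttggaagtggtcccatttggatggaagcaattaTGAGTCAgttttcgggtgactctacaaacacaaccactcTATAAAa
Mmp10, chr9:7502242-7502341: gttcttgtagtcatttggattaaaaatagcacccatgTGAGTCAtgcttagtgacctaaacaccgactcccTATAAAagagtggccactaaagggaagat
Mmp20, chr9:7628131-7628230: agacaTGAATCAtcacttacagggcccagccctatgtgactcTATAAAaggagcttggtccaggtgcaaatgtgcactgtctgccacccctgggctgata
Mmp7, chr9:7691990-7692089: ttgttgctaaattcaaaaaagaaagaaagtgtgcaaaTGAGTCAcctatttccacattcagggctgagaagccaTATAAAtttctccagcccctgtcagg
Mmp1b lies on the minus strand and the others on the plus strand of GRCm38.p6. Mmp13 and Mmp3, which were described, hold both motifs, and so do Mmp1b, Mmp10, Mmp20 and Mmp7, which had 0 counts in every heart.

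The genes that work with these proteases were taken from lists. Of 15 genes listed as inhibitors, 13 were tested and 2 were called, both higher in sensitive hearts, beside 0.78% of all genes tested. Of the 13, 7 had a positive and 6 a negative log2 fold change, with a median of 0.07. An unadjusted p under 0.05 was found in 6 of the 13. The list was chosen with earlier results of these data known, so its count is not independent evidence of a direction. One of the 2 called genes was Timp4, a tissue inhibitor of metalloproteinases known from the heart. It had 20.9, 22.3 and 25.7 CPM in resistant hearts and 35.4, 64.4 and 52.9 CPM in sensitive hearts (log2 fold change 1.15, edgeR adjusted p = 0.00274). With the robust form of edgeR's prior its adjusted p was 0.102, and in the 6 fits that left out a heart it was at most 0.0128. Of the genes on this list that were not called, Spock2 had the smallest p (log2 fold change 0.50, edgeR adjusted p = 0.135). Timp3 was higher in all sensitive hearts, whereas Timp2 overlapped between the genotypes. Timp3 and Timp2 had log2 fold changes of 0.20 and -0.23 (edgeR adjusted p = 0.184 and 0.323). Per kilobase, Timp2 had the highest level of the Timp genes at 27.1 CPM per kilobase, followed by Timp3 at 14.2, Timp4 at 6.27 and Timp1 at 1.42 CPM per kilobase.

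No gene was called among 13 tested activators of the zymogens or among 13 tested partners in edgeR or in any other setting, with 3 and 2 of them at an unadjusted p under 0.05. DESeq2 gave an adjusted p to 9 of the activators and 11 of the partners. Furin, which cuts the propeptide of many Mmp, Adam and Adamts proteins, had 77.5, 71.5 and 80.5 CPM in resistant hearts and 88.2, 93.5 and 89.1 CPM in sensitive hearts. All sensitive hearts were higher, with a log2 fold change of 0.24 (standard error 0.07, edgeR adjusted p = 0.129). Plat and Pcsk6 had log2 fold changes of -0.33 and -0.26 (edgeR adjusted p = 0.264 and 0.271). Among the partners, Tll2, Bmp1 and Tspan5 had the smallest p, with log2 fold changes of -1.10, -0.18 and -0.48 (edgeR adjusted p = 0.264, 0.334 and 0.36).

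Among the matrix substrates, 22 were tested and 21 had a negative log2 fold change, beside 51.6% of all genes tested, with a median of -0.25. Of the 22, 13 had an unadjusted p under 0.05, beside 14.5% of all genes tested, and 3 were called, all lower in sensitive hearts, beside 0.659%. This list was drawn up with the lower matrix genes of these samples known, so its count is not independent evidence of a direction. Fbn1, the fibrillin gene of microfibrils, had 134.5, 146.2 and 130.8 CPM in resistant hearts and 104.5, 105.7 and 92.0 CPM in sensitive hearts (log2 fold change -0.45, edgeR adjusted p = 0.01). Col5a1, a fibrillar collagen chain, had 65.4, 66.5 and 56.8 CPM against 48.3, 48.2 and 41.8 CPM (log2 fold change -0.45, edgeR adjusted p = 0.0218). Fn1, the fibronectin gene, had 69.4, 78.0 and 62.5 CPM against 46.7, 55.5 and 49.0 CPM (log2 fold change -0.47, edgeR adjusted p = 0.0222). The genotypes did not overlap in any of the 3. Fbn1 was called with each heart left out in turn. Col5a1 lost the call without mouse 368, 369 or 381 (edgeR adjusted p at most 0.0924) and Fn1 without mouse 368, 369, 379 or 381 (edgeR adjusted p at most 0.0877). The 12 fibroblast markers summed to 2186 to 2499 CPM in resistant hearts and 2284 to 2584 CPM in sensitive hearts. Of the 12, 9 were lower, none was called in edgeR and 3 had an unadjusted p under 0.05. DESeq2 called 1, Col1a1, and none was at 0 in every heart. A large part of these sums was Gsn, with 990 to 1131 CPM and 1117 to 1313 CPM, in that order (log2 fold change 0.17, edgeR adjusted p = 0.351). Col1a1, Col1a2 and Dcn also stand among the matrix substrates. The 10 mural markers of smooth muscle cells and pericytes were all lower, with no call in edgeR, 1 in DESeq2 and 5 at an unadjusted p under 0.05, and summed to 1467 to 1541 CPM and 1296 to 1465 CPM, none of them at 0 in every heart. The part of these cells in the matrix values and in Mmp15 and Adam19 was not tested.

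**Figure D5:**
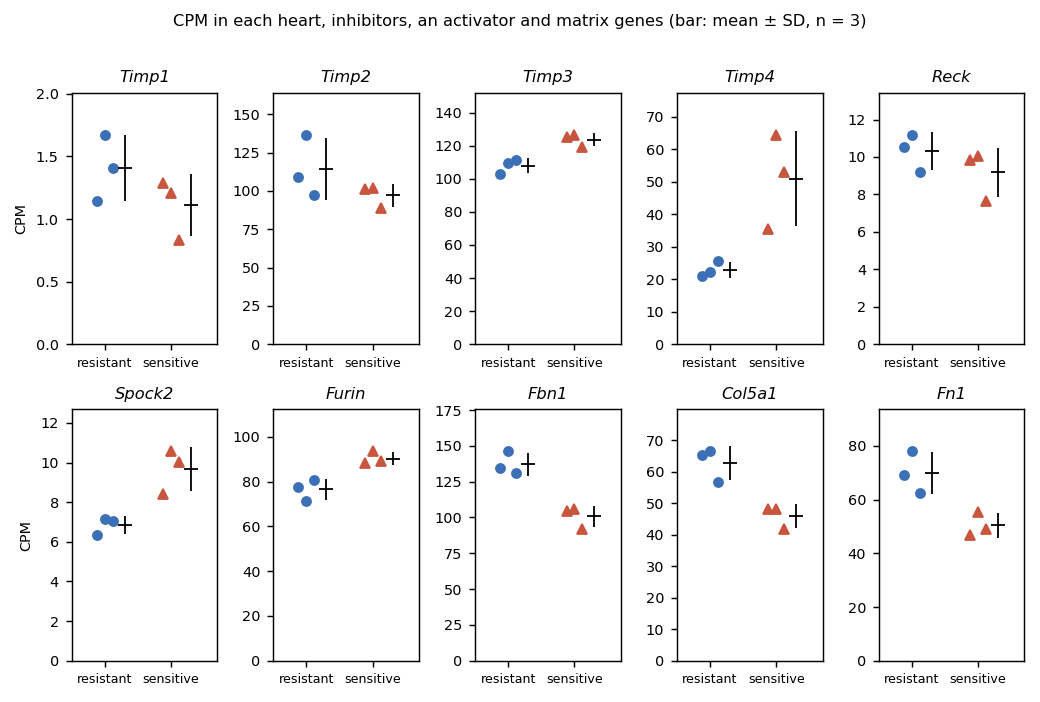
CPM in each heart for 6 genes of the inhibitor list, the activator Furin and the 3 called matrix substrates, with the mean ± SD (n = 3) beside the points. Timp3, Timp4, Spock2 and Furin are higher and Fbn1, Col5a1 and Fn1 lower in all sensitive hearts, and Timp1, Timp2 and Reck overlap between the genotypes.

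Of 26 tested cell surface substrates, 8 had a positive and 18 a negative log2 fold change, with a median of -0.14, and none was called in edgeR, with 3 at an unadjusted p under 0.05. DESeq2 called none of the 21 it gave an adjusted p. The smallest p belonged to Fas, the death receptor, with 15.3, 13.9 and 13.4 CPM in resistant hearts and 17.8, 19.3 and 20.1 CPM in sensitive hearts (log2 fold change 0.43, edgeR adjusted p = 0.0727). Notch2, a receptor cut by Adam10, and Ace, which is shed from endothelium, had log2 fold changes of -0.32 and -0.20 (edgeR adjusted p = 0.14 and 0.253). Nrg1, the neuregulin that Adam19 releases, had 2.05 to 4.30 CPM in the 6 hearts and a log2 fold change of -0.41 (standard error 0.29, edgeR adjusted p = 0.567).

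Of the other cell types, the 10 endothelial markers summed to 1306 to 1518 CPM in resistant hearts and 1145 to 1399 CPM in sensitive hearts, with 8 of 10 lower. The 6 endocardial markers summed to 75.0 to 88.6 and 78.0 to 85.8 CPM, the 6 epicardial to 5.78 to 9.84 and 4.93 to 8.19 CPM and the 8 lymphocyte markers to 5.98 to 9.94 and 3.18 to 9.94 CPM. None of these lists held a called gene in edgeR, and 2 endothelial and 1 lymphocyte marker had an unadjusted p under 0.05. DESeq2 called none of the 10 endothelial, 4 endocardial and 1 epicardial markers that it gave an adjusted p, and it gave none to the lymphocyte markers. The 6 mast cell markers summed to 11.45 to 13.85 and 7.16 to 10.05 CPM, of which Kit had 8.12 to 8.69 and 3.16 to 5.63 CPM, with Kit called lower (log2 fold change -0.97, edgeR adjusted p = 0.0303). The 7 adipocyte markers summed to 342.8 to 431.0 and 473.4 to 539.8 CPM, with Fabp4 called higher (log2 fold change 0.39, edgeR adjusted p = 0.0358) and Ucp1 at 0 in every heart. These sums are nearly those of Fabp4 alone, which had 339.6 to 425.8 CPM in resistant hearts and 469.7 to 528.1 CPM in sensitive hearts, while none of the other adipocyte markers exceeded 7.89 CPM. Leaving out 1 heart kept the call of Kit only without mouse 380 and that of Fabp4 only without mouse 369, with edgeR adjusted p up to 0.101 and 0.152 otherwise. The part of these cells in the protease values was not tested.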

How the data were processed

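Whole heart RNA was sequenced by a company, which did the quality control, mapping and counting. The authors deposited raw read counts per Ensembl gene, without normalization, with gene lengths and coordinates. The submitters' processing notes name fastp, STAR, featureCounts and mm10; versions and the use of strand are not given in the sources used here. Of 80 members, 79 had the same coordinates in GENCODE M21. A second deposited table holds the authors' own fold changes and p-values and was not used.

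Each heart came from a separate mouse and was counted as 1 replicate, and hearts of a genotype differed by more than counting noise (chi-square per gene of 6.85 to 13.1). Counts were analysed in R 4.3.3 with edgeR 4.0.16, using TMM factors. Low genes were removed by filterByExpr with its limits of 10 for the count and 15 for the total. The quasi-likelihood test was fitted on all 6 hearts, p-values were adjusted by Benjamini-Hochberg over every gene in the fit, and 0.05 was the threshold. The biological coefficient of variation was 11.1%. CPM used TMM-scaled library sizes of the tested genes. Standard errors came from the size of the log2 fold change and its F statistic, and 95% intervals from the fit's degrees of freedom. An exact permutation test of 3 hearts against 3 cannot go under p = 0.1, so none is given. DESeq2 1.42.0 and the settings in the closing section were alternatives. The code of the fit was also run on simulated counts, whose changes were larger than that of Mmp15, and no result here rests on that run.

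The members and gene lists were chosen with earlier results of these data known. Values in every heart are given for members called by edgeR or DESeq2, for the 10 with the smallest p and for the 8 with the highest level per kilobase, and for some low members chosen after their values were seen. Of each list, the called genes and the 3 with the smallest p are named, with Timp genes, Nrg1 and marker genes added after their values were seen. Protein sequences were not used here. A few items are not reported here.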

Additional observations from a re-analysis of the deposited data

How the results depend on the processing

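No paired analysis was possible because nothing in the labels pairs a resistant mouse with a sensitive mouse. The settings that kept all 6 hearts were DESeq2, RLE factors, upper-quartile factors, no filter on low counts, at least 10 counts in every heart, the limit of the described genes applied to all genes, leaving out globin and mitochondrially encoded genes, and edgeR's robust prior. DESeq2 called 403 genes, 246 higher and 157 lower, and no filter called 618, 324 higher and 294 lower, beside 214 by edgeR as reported, 116 higher and 98 lower. Leaving out 1 heart in turn gave 80 to 158 genes, 42 to 91 higher and 38 to 67 lower. Of the described genes, 2 were called, both lower, in DESeq2, with upper-quartile factors, with at least 10 counts in every heart, without globin and mitochondrially encoded genes and with the robust prior, and 3, all lower, without a filter. Leaving out 1 heart gave 0 to 1, all lower. The 1 call without mouse 369 was Adam19.

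The median log2 fold change of the described genes ran from -0.07 to -0.03 over the settings with all hearts and from -0.10 to 7.15e-06 when 1 heart was left out, the last without mouse 381. The count of positive log2 fold changes ran from 16 to 23 when 1 heart was left out. The log2 fold change of Mmp2 then ran from -0.11 to 0.12, positive without mouse 369 or 381, and that of Adamts1 from -0.18 to 0.093, positive without mouse 369, 380 or 381. Among the 30 described genes not given in full by the naming rule, 18 changed sign in at least 1 such fit and none was called in any setting. Matrix substrates called numbered 8 in DESeq2, 5 with upper-quartile factors, 9 without a filter, 5 with at least 10 counts in every heart, and 1 to 4 when 1 heart was left out. Inhibitors called were 1 with the robust prior and 1 to 2 when 1 heart was left out. Of the cell surface substrates, 1 was called without a filter. The cause of these changes was not tested. Merged exon lengths of the annotation equalled the deposited lengths for 44 of the 46 described genes, the 8 with the highest level included, and lowered Adamts10 from 6.51 to 4.30 and Adamts19 from 0.200 to 0.0664 CPM per kilobase. DESeq2 gave an adjusted p to 28 of the described genes. The 9 described genes with under 10 counts in at least 1 heart had standard errors of 0.43 to 0.62 on the log2 scale, so that depth limits what can be seen there.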
